A study of Mus musculus with 6 samples.

Results

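The clock output transcription factors are the proteins that carry the timing of the circadian clock to other genes or feed it back to the clock itself. This account covers 8 of their genes, Dbp, Tef, Hlf, Nfil3, Bhlhe40, Bhlhe41, Rora and Ciart, in proximal tubules of Clcn5 knockout and wild type mice. The members were all probe sets whose platform annotation holds 1 gene symbol that is one of these names. There were 21 such probe sets among 45037 that are not controls, for 8 of 18193 annotated genes. ClC-5, the product of Clcn5, exchanges chloride for protons in endosomes. Tubule pieces of both groups were dissected out in cold salt solution after halothane anaesthesia and perfusion of the left kidney, with 80 to 100 pieces of 2 mm taken per kidney. There were 3 Affymetrix mouse arrays with RNA of the Clcn5 knockout and 3 with RNA of wild type mice. Each array held RNA pooled over 3 to 4 mice by the series text and over 7 by the array records, a difference that was not settled. The labels used here give no strain, age, sex or knockout allele, and no time of day at which the kidneys were taken.

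In the circadian clock, CLOCK and BMAL1 (the product of Arntl) bind E-boxes and switch on the Per and Cry genes, whose products then repress them. The same E-boxes drive Dbp, and DBP, TEF and HLF, the PAR bZIP activators, bind D-boxes in genes of metabolism and detoxification in liver and kidney. NFIL3 binds the same D-boxes as a repressor. DEC1 and DEC2, the products of Bhlhe40 and Bhlhe41, and CHRONO, the product of Ciart, repress CLOCK and BMAL1. RORα, the product of Rora, binds RORE elements, through which it raises Arntl.

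The values are MAS5 signals, brightness values on a linear scale, with the same trimmed mean on every array. Median signals were 40.9 to 45.3 on 5 arrays and 48.8 on knockout array 3, the only array with its solution lot. Probe sets with a geometric mean over the 6 arrays of at least 41.9, the median of all probe sets that are not controls, were tested with limma. Each gene was represented by its tested probe set with the highest mean, and a call is an adjusted p under 0.05 over all genes. The targeted gene was lower in knockout on all its probe sets, with signals of 107 to 127 against 821 to 861 on 1429400_at. Which part of Clcn5 was deleted is not given in the sources used here. Genes that mark the early proximal segments, S1 and S2, were bright, with summed signals of 34218 to 36576 in knockout and 34409 to 38814 in wild type. Genes of the thick ascending limb and of the distal convoluted and connecting tubule were also bright, with summed signals of 14036 to 15493 and 17319 to 18138 in knockout against 11895 to 12414 and 14664 to 16942 in wild type, so the samples held RNA of genes that mark other segments. In such mixed samples, fewer cells of a type and less RNA per cell cannot be told apart.

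Dbp, Hlf and Bhlhe40 fell in the knockout tubules and no member rose. Of the 8 genes, 6 had a tested probe set, and 3 of these 6 fell. Among all 11620 genes tested, 6.48% were called, 3.24% as lower and 3.24% as higher in knockout. The median log2 change of the 6 genes was -0.24, against 0.0085 over all genes tested. In 4 of the 6 the groups did not overlap, which was so for 25.2% of all genes tested. Nfil3 and Bhlhe41 were too dim to be tested. With so few members these counts describe the 6 genes and show nothing particular to them as a group. On the scale of single probe sets, 17 of the 21 were tested, 4 fell and none rose, where 4.76% of all 22519 tested probe sets were called, 2.46% as lower and 2.29% as higher in knockout. The groups did not overlap on 9 of the 17, against 23.2% of all tested probe sets.

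**Figure D1:**
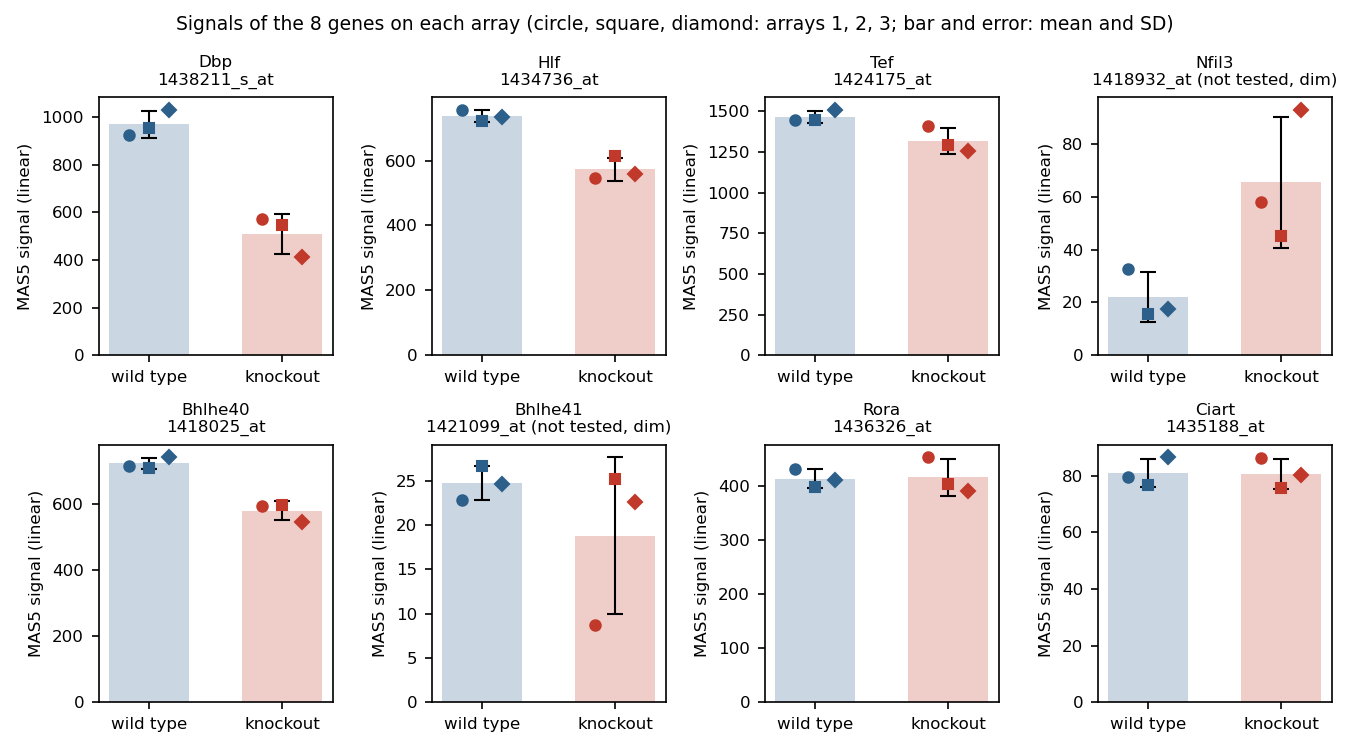
MAS5 signal (linear, y axis from 0) of the 8 genes in wild type (blue) and knockout (red) tubules, with 1 symbol per array, bars at the mean of 3 arrays and error bars of 1 SD. The groups are apart for Dbp, Hlf, Bhlhe40, Tef and the dim Nfil3, and they overlap for Bhlhe41, Rora and Ciart.

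Dbp, the PAR bZIP gene with the widest daily swing in most tissues, was lower by almost the same ratio on both of its probe sets. On 1438211_s_at, which represented the gene, the signals were 572, 546 and 415 on knockout arrays 1, 2 and 3. The wild type arrays gave 925, 953 and 1032. Every knockout array lay below every wild type array, and knockout array 3 was the lowest. The mean was 511 ± 84.2 (SD, n = 3) in knockout and 970 ± 55.5 (SD, n = 3) in wild type, which is 1.92-fold lower. The log2 change was -0.94 with an SE of 0.11 (limma adjusted p = 0.000439). By the size of the log2 change Dbp ranked 161 of the 11620 genes. On 1418174_at the knockout signals were 432, 453 and 292 and the wild type signals 759, 782 and 834. This probe set was 2.06-fold lower (log2 change -1.04, limma adjusted p = 0.00194 over all tested probe sets). The fall was present in each fluidics station, the unit that washes and stains arrays, with a log2 difference of -0.81 on station 1 (2 knockout and 2 wild type arrays) and -1.20 on station 2 (1 of each) for 1438211_s_at. Without knockout array 3 the log2 change of the gene was -0.79. The call held in all 19 alternative settings, of which the looser threshold of 0.1 could not end it.

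Hlf, a PAR bZIP gene whose product can pair with DBP and TEF, fell by less. On 1434736_at the knockout signals were 546, 614 and 559 and the wild type signals 757, 721 and 736. The groups did not overlap, and the gap between the nearest arrays was wider than the range within either group. The level was 1.29-fold lower in knockout, at 573 ± 36.2 against 738 ± 18.1 (SD, n = 3). The log2 change was -0.37 with an SE of 0.068 (limma adjusted p = 0.00749). The other probe set, 1434735_at, read 527, 450 and 490 in knockout and 552, 536 and 554 in wild type. There the log2 change was -0.17, with a 95% interval from -0.34 to 0.0040, and it did not pass the threshold (limma adjusted p = 0.303 over all tested probe sets). Both probe sets lay lower on every knockout array, but they differed in size and in the call. The mean of both gave the gene a log2 change of -0.27 (limma adjusted p = 0.0192). The call of Hlf ended when each array was centred on its median (limma adjusted p = 0.196), without an intensity trend in the variances (0.0574) and on station 1 alone (0.0637).

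Tef, the PAR bZIP gene named for the thyrotroph cells of the pituitary, was not called. Its brightest probe set, 1424175_at, read 1407, 1292 and 1253 in knockout and 1446, 1445 and 1510 in wild type. These groups did not overlap, but knockout array 1 lay close to the wild type arrays. The log2 change was -0.16, with a 95% interval from -0.30 to -0.014 and a limma adjusted p of 0.206. The 2 other probe sets had log2 changes of -0.086 and -0.13, and their groups overlapped. The interval leaves room for a fall up to that bound and does not include one of the size measured for Dbp.

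The ratios between the 3 PAR bZIP genes within an array show how unequal their changes were. The log2 ratio of Dbp to Tef was -1.30, -1.24 and -1.60 on the knockout arrays and -0.64, -0.60 and -0.55 on the wild type arrays. It differed between the groups by -0.78. The ratio of Dbp to Hlf differed by -0.57 and the ratio of Hlf to Tef by -0.21. In all 3 ratios of these representing probe sets the knockout arrays lay below the wild type arrays without overlap. Each gave p = 0.10 in a two-sided exact permutation test, also after adjustment over the 3 pairs, which is the smallest p that 3 arrays against 3 allow. The groups also stayed apart for every pair of tested probe sets of Dbp with those of Hlf (-0.87 to -0.57) and of Tef (-0.95 to -0.78). The ratio of Hlf to Tef depended on the probe set: with the other one of Hlf, 1434735_at, it differed by -0.0088 from the brightest of Tef, and the groups overlapped (exact permutation p = 1). With 1434736_at of Hlf the groups also overlapped against 1450184_s_at of Tef (-0.23, exact permutation p = 0.2). The difference of Hlf from Tef thus depends on the probe sets of both genes.

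Nfil3, whose product competes with the PAR bZIP factors for D-boxes, was the one member with higher signals on every knockout array. Its only probe set, 1418932_at, read 58.0, 45.2 and 93.0 in knockout and 32.7, 15.5 and 17.6 in wild type. The groups did not overlap, as was the case for 20.5% of genes when dim probe sets were kept. The knockout arrays were spread widely, with knockout array 3 the highest. The geometric mean over the 6 arrays lay under the filter, so Nfil3 was not part of the main test. With no filter Nfil3 did not pass the threshold (limma adjusted p = 0.0598 over 18193 genes, of which 3.54% were called, 1.75% as higher in knockout). Wild type signals this low could not be told from background, so no fold is given. With 50 added to every signal, which damps dim values, the log2 difference was 0.67. Nfil3 is also known as a gene that immune signals and stress switch on, and 3 of 10 leukocyte markers rose on the same arrays. The summed signal of the 10 markers was 3123 to 3176 in knockout and 2192 to 2204 in wild type, and none was listed at 0. Those that rose were Cd74, of antigen presentation, Csf1r, the receptor of a macrophage growth factor, and Laptm5, a lysosomal protein of blood cells. Cd74 (mean 1095 in knockout, 662 in wild type) and Csf1r were the brightest of the 10 and weigh most in the sum. The markers beside the 3 that rose were not called, where 3.24% of all genes tested rose. The call of Laptm5 held in 14 of 19 alternatives and ended without knockout array 3, wild type array 2 or wild type array 3 (adjusted p up to 0.0790), on station 1 alone and with averaged probe sets, where the log2 change was 0.21 (adjusted p = 0.469). Csf1r was at 873 ± 16.8 in knockout and 583 ± 21.8 in wild type (SD, n = 3). Their part in the Nfil3 signal was not tested.

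Bhlhe40, whose product DEC1 represses genes at E-boxes, fell. Its probe set 1418025_at read 595, 598 and 547 in knockout and 717, 711 and 743 in wild type. The groups were apart and the arrays within each group were close. The level was 1.25-fold lower (580 ± 28.6 against 724 ± 17.2, SD, n = 3; log2 change -0.32, SE 0.065, limma adjusted p = 0.0126). The call ended without wild type array 1 (0.0538) or wild type array 3 (0.0645), with median centring (0.317), without an intensity trend (0.0756) and on station 1 alone (0.0804), while the log2 change stayed between -0.34 and -0.28. Bhlhe41, whose product DEC2 is the closest relative of DEC1, gave only dim signals. Probe set 1421099_at read 8.69, 25.1 and 22.6 in knockout and 22.8, 26.6 and 24.6 in wild type, where a single low array, knockout array 1, separates the means. Its other probe set, 1457096_at, lay between 4.43 and 7.72 on all 6 arrays. Signals this low have no detection call here, so a level of Bhlhe41 above background was not established.

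Rora, the gene of the nuclear receptor RORα, has 9 probe sets, more than any other member, and they disagreed. The brightest, 1436326_at, read 453, 403 and 390 in knockout and 431, 397 and 411 in wild type. Its groups overlapped, and the log2 change was 0.0057 with a 95% interval from -0.17 to 0.18 (limma adjusted p = 0.979). Of the 8 tested probe sets, 6 had a log2 change below 0 and 2 above, and none passed the threshold. The lowest was 1441085_at at -0.70 (28.9, 46.4 and 31.6 against 60.6, 52.3 and 57.0, limma adjusted p = 0.167 over all tested probe sets). It was followed by 1455165_at at -0.57 and 1424035_at at -0.43, both also without overlap between the groups. These 3 and 1458129_at were the dimmest of the 8. When the tested probe sets were averaged, the log2 change of Rora was -0.25 (limma adjusted p = 0.142). Probe sets of this array can read different 3′ ends of a gene, and which transcripts of Rora they read is not given in the sources used here.

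Ciart, the gene of the repressor CHRONO, was not called. Its probe set 1435188_at read 86.1, 75.6 and 80.1 in knockout and 79.6, 76.8 and 86.6 in wild type. The ranges overlapped almost completely. The log2 change was -0.0075 (SE 0.15, limma adjusted p = 0.985), and the 95% interval from -0.34 to 0.33 leaves room for a change of about the size of that of Bhlhe40. It does not include the change measured for Dbp.

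**Figure D2:**
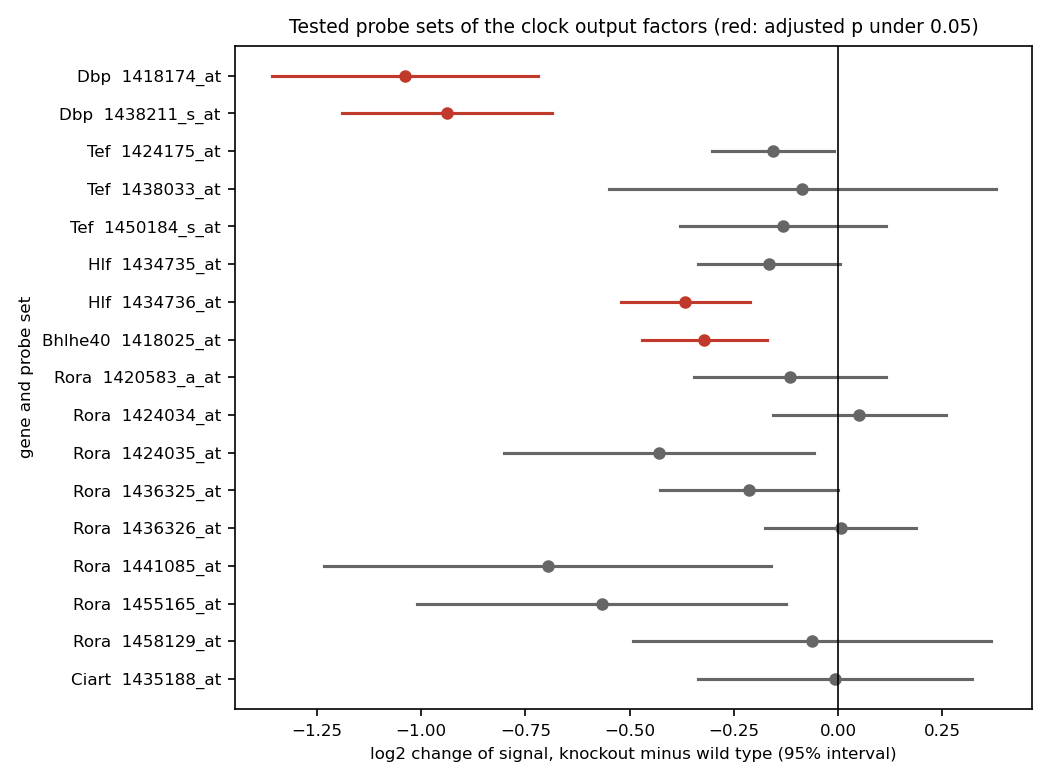
Log2 change of signal, knockout minus wild type (x axis), with its 95% interval for the 17 tested probe sets of the clock output factors (y axis), red where the adjusted p over all tested probe sets was under 0.05. Both probe sets of Dbp lie near -1, 1 of 2 for Hlf and the 1 of Bhlhe40 pass at smaller size, and the 8 of Rora spread from -0.70 to 0.050.

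Promoter sequences are shown because the clock factors reach the members through short elements. RefSeq promoters (GRCm38.p6, 250 bases before to 50 after a start site) were found for 7 of the 8 genes, in 8 windows. Bhlhe40 was not matched. An E-box (CACGTG, the same on both strands) was found in 4 of the 8 windows, against 7.15% of all 32851 promoters. These windows belong to 3 of the 7 genes, Tef, Bhlhe41 and Ciart. A D-box (TTANGTAA, either strand) was in none of the 8 windows, against 2.32% of all. An RORE core (TAGGTCA, either strand) was in 1 window, that of Nfil3, against 2.61% of all. The windows of Dbp and Hlf, which fell, held none of these motifs. No match means only that these letters are not in this window, and a match is a description of sequence. Ciart, which was not called, has 3 E-boxes, starting 116, 58 and 44 bases before the start site. Capitals mark the motifs, and the stretches of Ciart (chr3:95882258-95882478, minus strand) and Tef (chr15:81802423-81802672, plus strand) end before the annotated gene.
Ciart: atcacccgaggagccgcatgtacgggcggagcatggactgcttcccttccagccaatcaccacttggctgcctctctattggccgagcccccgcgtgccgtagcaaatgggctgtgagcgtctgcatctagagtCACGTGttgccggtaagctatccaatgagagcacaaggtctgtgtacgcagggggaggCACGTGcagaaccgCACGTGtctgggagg
Tef: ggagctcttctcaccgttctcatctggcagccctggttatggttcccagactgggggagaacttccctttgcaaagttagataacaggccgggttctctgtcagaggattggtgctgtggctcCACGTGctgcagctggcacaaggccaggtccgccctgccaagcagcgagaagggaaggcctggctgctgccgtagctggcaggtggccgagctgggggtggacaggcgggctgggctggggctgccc

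The RORE core of Nfil3 is shown beside that of Arntl, a known target of RORα. Nfil3 was not called, and a part of these sites in the signals of either gene was not tested. The sites are shown as stretches of 30 bases, with the core in capitals, for Nfil3 (chr13:52981033-52981062, minus strand) and Arntl (chr7:113207530-113207559, plus strand). In Nfil3 the core lies on the opposite strand, so that it reads as its reverse complement, and begins 12 bases before the start site. In Arntl it begins 30 bases after one of the start sites.
Nfil3: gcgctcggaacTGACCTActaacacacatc
Arntl: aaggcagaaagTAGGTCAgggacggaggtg

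Most of the core clock genes themselves were not called. Of 13 tested genes of the core loop, 1 rose and 1 fell, against 3.24% of all genes tested in each direction. Their median log2 change was 0.058. With dim probe sets kept, 16 genes of the loop were tested, of which 2 rose and none fell. In that setting 1.75% of all 18193 genes rose. Arntl, the gene of BMAL1, rose 2.97-fold on 1425099_a_at, from signals of 50.7, 56.1 and 62.9 in wild type to 168, 157 and 177 in knockout (log2 change 1.57, SE 0.14, limma adjusted p = 8.06e-05). It passed in all 18 alternatives that tested it. Its second probe set, 1457740_at, was dim and its groups overlapped (log2 change -0.062). Per2, a repressor of the loop, fell 1.52-fold on 1417602_at (limma adjusted p = 0.0353). The signals were 134, 159 and 139 in wild type and 88.1, 113 and 84.9 in knockout. The call held in 9 of 19 alternatives and ended without any array but knockout array 2 (adjusted p up to 0.155). Its other tested probe set, 1457350_at, was at -0.31 with overlapping groups (limma adjusted p = 0.351 over all tested probe sets). A dim one, 1417603_at, was not tested and read lower on every knockout array. Nr1d2, which encodes a REV-ERB receptor that represses through ROREs, had a log2 change of -0.18 (adjusted p = 0.147), and Cry2, a cryptochrome gene, one of 0.39 (adjusted p = 0.314).

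Genes known as targets of the PAR bZIP factors included 3 that fell and none that rose, of 9 tested. Among all genes tested, 3.24% fell. The 9 are too few to show anything particular to the list. All 3 that fell encode acyl-CoA thioesterases, which release fatty acids from coenzyme A. Acot3 read 203, 155 and 144 in knockout and 410, 320 and 281 in wild type, with a log2 change of -1.01 and an SE of 0.16 (limma adjusted p = 0.00286). On station 1 alone it was not called (adjusted p = 0.0522). Acot4 was 1.43-fold lower on 1422076_at (241 ± 24.4 against 342 ± 8.96, SD, n = 3). On its other probe set, 1422077_at, the log2 change was -0.21 and the groups overlapped (limma adjusted p = 0.520 over all tested probe sets). Acot2 was 1.25-fold lower on 1439478_at, a call that held in 7 of 19 alternatives and ended without any array but knockout array 3 (adjusted p up to 0.164). Over all tested probe sets neither that one (limma adjusted p = 0.0586) nor 1422996_at (log2 change -0.92, 0.0958) of Acot2 passed. These genes are near-identical neighbours that can share probes, and they are targets of PPARα as well. Ppara itself, the gene of that receptor, read 686, 778 and 479 against 939, 863 and 957, with a log2 change of -0.53 that did not pass the threshold (limma adjusted p = 0.0573). The median of the list was -0.25. Pdxk and Alas1, which make cofactors and are targets outside fatty acid metabolism, had log2 changes of -0.014 and 0.15 and overlapping groups.

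Genes that cycle in many tissues showed 1 fall and no rise among 9 tested, against 3.24% of all genes tested in each direction. Wee1, a kinase gene that delays mitosis and has E-boxes, was 1.53-fold lower on 1416773_at (268, 353 and 228 against 403, 447 and 429, limma adjusted p = 0.0205). On its other probe set, 1416774_at, the log2 change was -0.61 and the groups did not overlap. That probe set did not pass the threshold (limma adjusted p = 0.208 over all tested probe sets). The call of Wee1 held in 13 of 19 alternatives and ended without knockout array 1, wild type array 2 or wild type array 3 (adjusted p up to 0.0918). Leo1, of a transcription elongation complex, had a log2 change of 0.66 (adjusted p = 0.0880). The median of the 9 was -0.12. Usp2 and Tsc22d3, which cycle with Dbp in most organs, were at -0.13 and -0.19 with overlapping groups.

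Transport genes of the kidney that are linked to the clock included 12 tested, of which 1 fell and none rose. Among all genes tested, 3.24% fell and 3.24% rose. The median log2 change of the 12 was 0.057. The gene that fell was Aqp2, the water channel of collecting duct cells (limma adjusted p = 0.0485), a call that held in 6 of 19 alternatives and only without knockout array 1 when an array was left out (adjusted p otherwise up to 0.161). Slc6a9, a glycine transporter gene, was at -0.26 (adjusted p = 0.0967). Slc9a3, the gene of the proximal sodium/proton exchanger, was at 0.088 and Slc5a2, that of the main glucose carrier, at -0.025.

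**Figure D3:**
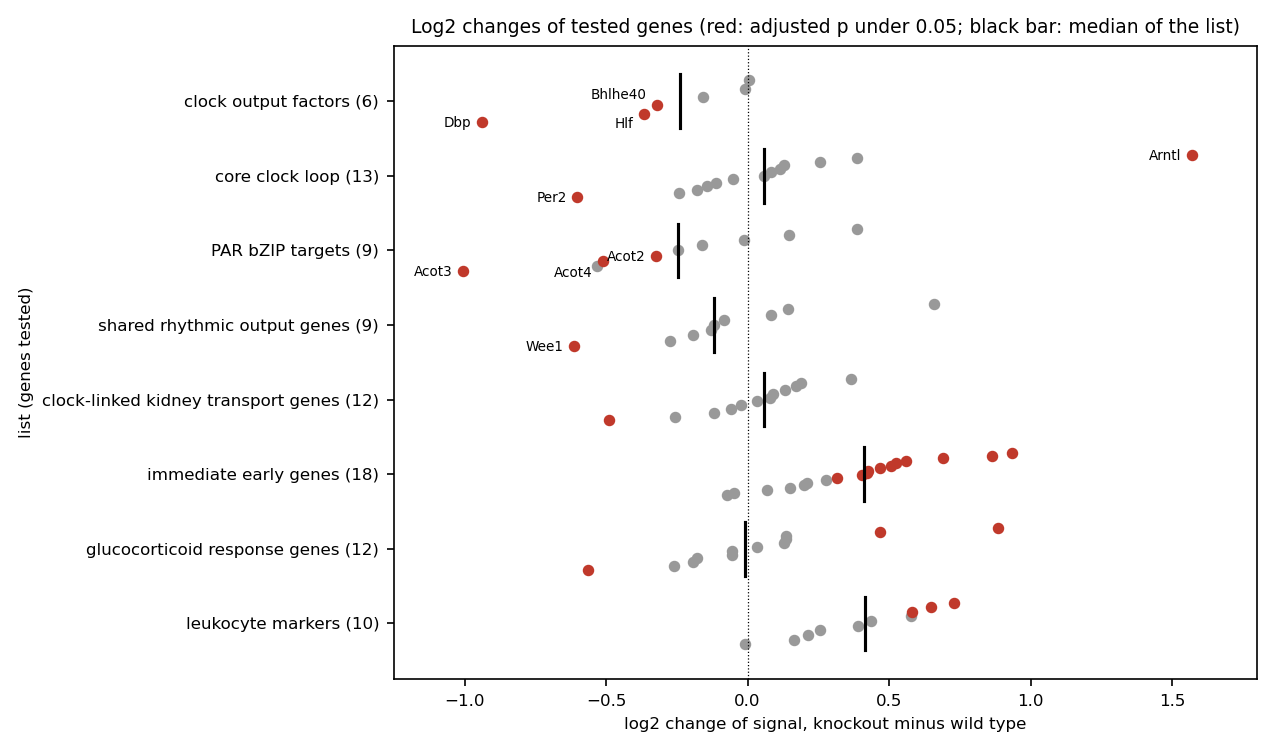
Log2 change of signal, knockout minus wild type (x axis), of the tested genes of each list (y axis, number tested in brackets), red where the adjusted p over all genes was under 0.05, with a black bar at the list's median. Dbp and Arntl are the farthest genes of the first 2 lists, at -0.94 and 1.57, and the immediate early genes and leukocyte markers lie mostly above 0.

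Other sets of genes moved on the same arrays, where 3.24% of all genes tested rose and 3.24% fell. Immediate early genes, which respond within minutes to signals and to handling of tissue, rose in 11 of 18 tested, and none fell (median log2 change 0.41). Among them were Zfp36 at 1.82-fold, Btg2 at 1.91-fold, Dusp1 at 1.38-fold and Jund at 1.42-fold. With median centring 7 of the 18 rose. Bhlhe40 and Nfil3 can also respond to acute signals. Here Bhlhe40 fell, while the signals of Nfil3 were higher but too dim for the main test. A part of acute signals in either gene was not tested. Of 12 tested genes of glucocorticoid response, a hormone signal that also sets clock genes in peripheral tissues, 2 rose, Dusp1 and Zbtb16, and 1 fell (median -0.0096). Zbtb16, a zinc finger gene, rose 1.85-fold and Hsd11b1, which regenerates active glucocorticoid, was 1.48-fold lower, while Fkbp5, a sensitive target of the receptor, was at -0.26 (adjusted p = 0.104). With averaged probe sets Zbtb16 was not called (adjusted p = 0.228). Among cell type markers, 2 of 8 rose for the S3 segment, 2 of 6 for podocytes, 2 of 7 for the thick ascending limb, 4 of 7 for the distal convoluted and connecting tubule and 3 of 7 for intercalated cells. With median centring these counts were 1 for S3, 2 for podocytes, 0 for the thick ascending limb, 1 for the distal convoluted and connecting tubule and 2 for intercalated cells, and with averaged probe sets the distal count was 2. Leaving out 1 array gave 3 without knockout array 3 and 1 without any other for the thick ascending limb, and for podocytes 3 without knockout array 3 and 1 without knockout array 2, wild type array 1 or wild type array 3. For principal cells 2 of 7 fell, 1 with median centring and without any array but knockout array 1, for the S1 and S2 segments 1 of 10 fell, and none of 8 endothelial and 6 fibroblast and muscle markers was called. The part of these shifts in the changes of Dbp, Hlf and Bhlhe40 was not tested. No time of day is given for either group. A difference in collection time between the groups therefore cannot be told apart from the knockout and was not tested.

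Over the 6 tested genes the coefficient of variation of the signal, the SD as a share of the mean, was 2.38% to 6.24% in wild type and 4.94% to 16.5% in knockout, with Dbp at the upper end in knockout. The 3 genes whose pattern over the 6 arrays was most like that of Dbp were Col27a1, Tnfaip8 and Bhlhe40, with Pearson's r of 0.997, 0.997 and 0.996. For Hlf they were Decr2, Mmd and Sectm1b (0.992, 0.990 and 0.990), and for Bhlhe40 they were Fgg, Blvrb and Gstt2 (each 0.997). These r describe 6 arrays of which 3 belong to each group, so that the difference between the groups enters each of them.

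**Figure D4:**
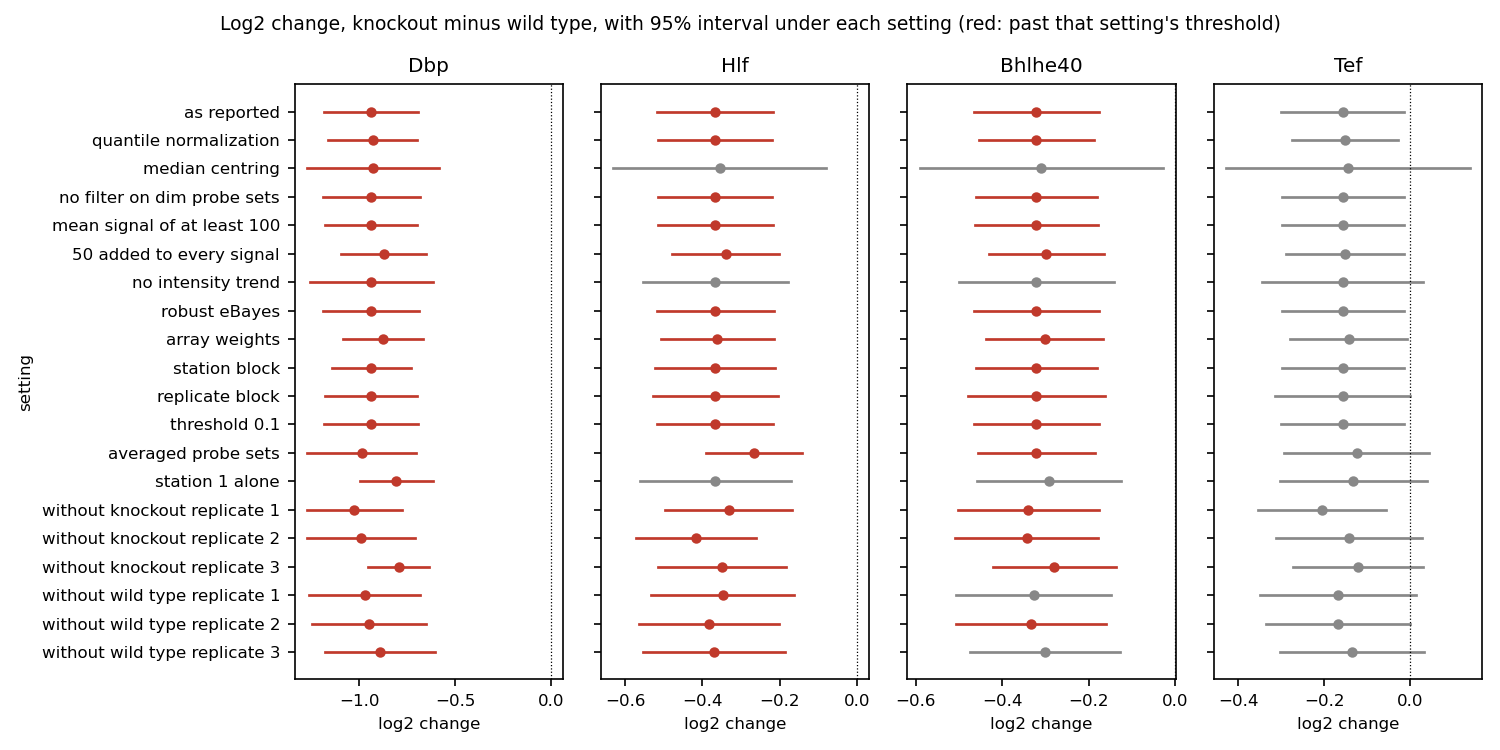
Log2 change, knockout minus wild type, with its 95% interval (x axis) for Dbp, Hlf, Bhlhe40 and Tef under the reported and each alternative setting (y axis), red where the adjusted p passed that setting's threshold. Dbp lies between -1.03 and -0.79 and passes in each, Hlf passes in 16 and Bhlhe40 in 14 of the 19 alternatives, and Tef passes in none.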

How the data were processed

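The authors deposited 1 signal intensity per probe set, not in log units; the submitters' processing notes name GCOS 1.4 and MAS5, and the trimmed mean of every array is 150. Groups were taken from the sample titles. The table lists no detection calls. RNA was primed at the poly(A) tail, per the labels' protocols, so probes read mostly 3′ ends. Values were log2-transformed with nothing added. Of 45037 probe sets that are not controls, 34945 carry 1 gene symbol, 932 several and 9160 none. Probe sets kept had a geometric mean signal of at least 41.9. The group difference came from limma 3.58.1 in R 4.3.3 (lmFit, then eBayes with the variance following intensity; 4 residual degrees of freedom), with two-sided p adjusted by Benjamini-Hochberg at 0.05, over 11620 genes (highest-mean kept probe set) and over 22519 kept probe sets. The array records call arrays of a group biological replicates, and p-values measure the spread between pools. The median SE of a log2 change was 0.115, and the number of arrays limits the precision. Means and SDs are of linear signals, and a fold is a ratio of geometric means. The steps were tested on simulated data. Named genes were all members and up to 4 genes of smallest p of each function list with at least 2 calls. Function lists with fewer calls gave up to 2. Also named were Clcn5, the 3 leukocyte markers of smallest p and the 3 genes most like each of the 3 members of largest change. For the other cell type lists only counts or summed signals are given. Other genes named (Pdxk, Alas1, Usp2, Tsc22d3, Slc9a3, Slc5a2, Npas2, Cry1) were chosen after their values were seen. The members and lists were chosen with earlier results of these data known. Alternatives changed normalization, filter, added signal, variance model, weights, blocks, threshold and probe set choice, and left out each array, with probe sets kept as chosen on all 6 arrays. The looser threshold of 0.1 cannot end a call, yet it is counted among the alternatives in which a call held. The station alone for counts, the settings for the lists and the other probe set pairs in ratios were chosen after seeing the data. Promoters were searched with Python 3.11.15.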

Additional observations from a re-analysis of the deposited data

How the results depend on the processing

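The number of called member genes, 3 as reported, was 1 with median centring, without an intensity trend and on station 1 alone, and 2 to 3 when 1 array was left out. For member probe sets, 4 as reported, it was 2 in those same 3 settings and 2 to 4 without 1 array: wild type array 1 or wild type array 3 gave 2. Over all genes the number of calls, 753 as reported, was 397 with median centring, 487 without an intensity trend, 458 on station 1 alone and 503 to 733 without 1 array. With the replicate number as a block, 765 genes and 3 member genes were called, with 4 member probe sets, and this pairing changed no call of a member. Arrays of the same number did not deviate together, since r over genes of their deviations from the group means was 0.021, 0.031 and -0.034. Of 413 values of a member's log2 change under an alternative, 376 kept direction and side of the threshold, 20 lost the call and 17 turned sign, all of the latter not called before or after. The turned values of Rora were -0.00078 with quantile normalization and -0.25 with averaged probe sets, and without 1 array its gene value ran from -0.059 to 0.050. For Ciart the turned value was 0.0041 with median centring, with -0.056 to 0.042 without 1 array. Without 1 array 1424034_at of Rora ran from -0.0078 to 0.13, 1458129_at of Rora from -0.22 to 0.14 and 1438033_at of Tef from -0.25 to 0.012, the last being 0.030 on station 1 alone. The cause of these differences was not tested. Low signals without detection calls limit what can be said of Nfil3 and Bhlhe41, and 3 arrays a group limit the rest.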

Other observations

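Npas2, which encodes a partner of BMAL1 that can stand in for CLOCK, was too dim on average for the main test. It was singled out after its values were seen. With dim probe sets kept, it was tested among the genes of the core loop, whose counts are given above. Its probe set 1421037_at read 84.3, 92.8 and 106 in knockout and 17.5, 37.1 and 6.26 in wild type. On 1421036_at the signals were 36.7, 22.0 and 26.6 in knockout and 7.85, 5.30 and 5.33 in wild type. On both, every knockout array lay above every wild type array. The groups did not overlap for 20.5% of all genes when dim probe sets were kept. The wild type signals could not be told from background, so no fold is given. Cry1, a cryptochrome gene of the repressing arm, was dim on all 6 arrays, at 7.54 to 19.0 in knockout and 18.6 to 28.7 in wild type, with overlapping groups.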
